A study of Mus musculus with 4 samples.

Results

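The haematopoietic growth factor receptors Kit, Flt3, Csf1r, Csf2ra, Il3ra, Csf2rb, Csf3r and Il6st were followed in mouse foetal liver progenitors. All probe sets annotated to exactly 1 of these genes were taken, which gave 16 of the 45037 probe sets fitted, for 8 of 18193 genes with a probe set of their own. The cells were HES1-GFP positive (1 array) or HES1-GFP negative (3 arrays) foetal liver cells, sorted as lineage negative, cKit+ and Sca1+ (LSK) from E13.5 embryos. All embryos were labelled female and Hes1 GFP/WT, so every array came from cells with a GFP reporter at 1 allele of Hes1. Hes1 is a transcriptional repressor and a target of Notch signalling. LSK cells contain the haematopoietic stem cells and the progenitors of several lineages. Whether the negative replicates are separate litters or separate sorts is not in the labels. Their spread may thus be technical, and so few arrays limit the precision.

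These receptors carry the signals that keep progenitors alive and direct them to a lineage. Kit, Flt3 and Csf1r are receptor tyrosine kinases of 1 structural class, which dimerize on binding stem cell factor, FLT3 ligand, or CSF1 and IL-34. Csf2ra and Il3ra are the alpha chains that bind GM-CSF and IL-3, and both pair with the signalling beta chain Csf2rb. Csf3r, the G-CSF receptor, works as a homodimer, and Il6st (gp130) is the signalling chain shared by the receptors of IL-6, IL-11, LIF and oncostatin M. The cytokine receptors have no kinase of their own and signal through JAK kinases and STAT factors. Csf1r marks the monocyte and macrophage branch, Csf3r the neutrophil branch, and Flt3 multipotent and lymphoid-primed progenitors.

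Values are log2 intensities after robust multi-array averaging (RMA), which equalizes the arrays. Levels of different probe sets are not set against each other, since their probes bind with different strength, and a sum over a marker list is carried mostly by its brightest probe sets. A probe set was called changed at a limma adjusted p under 0.05, with the spread taken from the negative arrays and the single positive array assumed to vary like them. A second description, with no variance model, was whether the value in the array labelled positive fell outside those of the 3 negative arrays. With 1 array against 3, the smallest one-sided p of an exact permutation test is 0.25.

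Hes1 itself went against the labels. Its log2 intensity was 6.57 in the array labelled positive, against 8.78, 9.07 and 6.70 in negative replicates 1, 2 and 3. Arrays are therefore named by label throughout, and a direction always refers to the array with the positive label. Over all probe sets, negative replicate 3 was the negative array nearest the one labelled positive. Between these 2 arrays 8.49% of probe sets were at least 1 log2 unit apart, while the other 5 pairs of arrays had 11.7% to 12.8%. Negative replicate 3 differed so from replicates 1 and 2 in 12.6% and 12.8%, and replicates 1 and 2 from each other in 11.7%. Since negative replicate 3 lay nearest, each receptor's difference is also given without it. Both Kit probe sets had log2 intensities of 8.39 or more in every array. Ly6a, the gene of Sca1, had no probe set annotated to it alone and so could not be checked.

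The receptors did not move as a block. Flt3, Csf1r and the brighter Csf2ra probe set were lowest in the array labelled positive, while Csf3r was high there and in negative replicate 3. The probe sets of Kit, Csf2rb and Il3ra spanned 0.45 to 0.77 log2 units over the 4 arrays, those of Csf1r 1.34 to 1.87. Of the 16 receptor probe sets, 7 lay below the negative range, 2 above it and 7 within it. Over all probe sets 23.6% lay below and 23.2% above, and among the 22518 brighter probe sets (mean over 4 arrays above the median), which include all 16 of the receptors, 20.5% lay below and 25.8% above. The receptor shares were 43.8% below and 12.5% above, but probe sets of 1 gene are not independent. Counted with 1 probe set a gene, 3 of 8 genes lay below (Flt3, Csf1r and Csf2ra) and 1 above (Kit), where 23.0% of all genes lay below and 23.6% above. None of the 16 lay outside the range by 1 log2 unit, as 1.35% of all probe sets did above and 0.631% below.

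limma called 0 of the 16 receptor probe sets, as it called 0% of all probe sets, and each had an adjusted p of 1.00 in limma. At an unadjusted p under 0.05 limma gave 2 of 16, 1 of Flt3 and 1 of Csf1r, where 4.51% of all probe sets passed. The median difference was -0.43 log2 units over the 16 and -0.01 over all probe sets. Without negative replicate 3 limma again called 0 of all probe sets and 0 of the 16, with a lowest limma adjusted p of 0.574 among the receptors. The unadjusted count was then 6 of 16, where 7.27% of all probe sets passed. Omitting negative replicate 1 or negative replicate 2 instead gave 0 of 16 each time. Replicate 3 was picked because it lay nearest the array labelled positive, so the higher count depends on that choice. Against negative replicates 1 and 2 only, a narrower range, 8 of 16 lay below and 4 above, where 32.5% and 34.4% of all probe sets did.

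**Figure D1:**
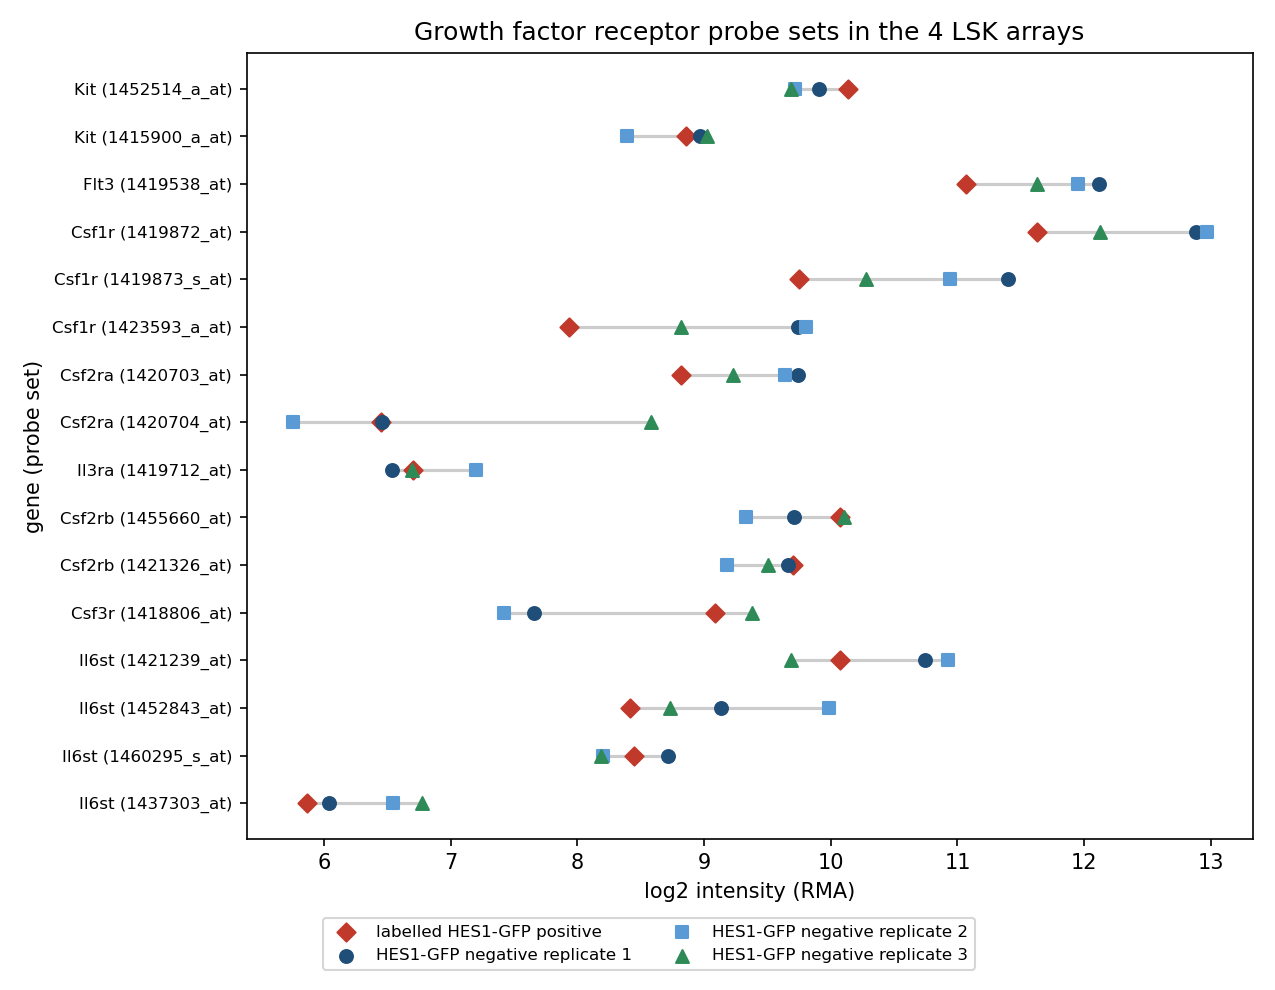
Log2 intensity (x axis) of each of the 16 receptor probe sets (rows) in the 4 arrays, with the array labelled HES1-GFP positive as red diamonds and the 3 negative arrays in blue and green. The 3 Csf1r probe sets, Flt3 and the upper Csf2ra probe set have the red diamond at the low end and negative replicate 3 next to it, while Csf3r has both at the high end; levels of different rows are not comparable.

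Kit, the stem cell factor receptor, encodes cKit, the surface protein on which the cells were sorted, while the arrays measure its RNA. The brighter probe set (1452514_a_at) measured 10.13 in the array labelled positive, against 9.90, 9.72 and 9.68 in negative replicates 1, 2 and 3. The array labelled positive was the highest of the 4, by 0.23 log2 units. The difference was 0.37 log2 units, or 1.29-fold, with a 95% limma interval of -0.24 to 0.97. In the second Kit probe set (1415900_a_at) the values were 8.86 in the array labelled positive and 8.96, 8.39 and 9.02 in negative replicates 1, 2 and 3. Here the array labelled positive lay inside the negative range, at a difference of 0.07 with an interval of -0.92 to 1.06. The differences without negative replicate 3 were 0.32 and 0.18 log2 units, and the second probe set gave 0.15 without replicate 1 and turned to -0.13 without replicate 2.

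Flt3, the receptor of FLT3 ligand, has a single probe set (1419538_at). It measured 11.07 in the array labelled positive, against 12.12, 11.95 and 11.63 in negative replicates 1, 2 and 3. The array labelled positive was the lowest, as in 23.6% of all probe sets, and negative replicate 3 the next. The difference was -0.83 log2 units (standard error 0.28, 95% limma interval -1.63 to -0.04), a level 1.78-fold lower. The limma p was 0.0436 before adjustment and 1.00 after it. Leaving out negative replicate 3 gave -0.97, leaving out replicate 1 gave -0.73 and leaving out replicate 2 gave -0.81. Lower bulk signal can come from fewer cells of a type or from less RNA per cell, which cannot be told apart here.

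Early lymphoid and B lineage markers were also lower in the array labelled positive than in negative replicates 1 and 2. Of 7 early lymphoid markers measured of 7 listed, 3 lay below the negative range and 0 above it, where 23.0% of all genes lay below and 23.6% above. Summed, their intensities came to 2506 in the array labelled positive, against 16145, 13789 and 2973 in negative replicates 1, 2 and 3. Of 7 B lineage markers measured of 8 listed, 5 lay below and 0 above, and their summed intensities were 3710 in the array labelled positive, against 17907, 18558 and 3694 in negative replicates 1, 2 and 3. No marker was at 0, since RMA intensities are never 0. Against negative replicate 3 alone, the array labelled positive was lower in 3 of the 7 early lymphoid and in 5 of the 7 B lineage markers, and Flt3 was 0.57 log2 units lower. The part of these cells in the Flt3 difference was not tested.

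Csf1r, the receptor of CSF1 and IL-34, had the largest differences of the 8 genes, in the same direction in its 3 probe sets. Probe set 1419872_at measured 11.63 in the array labelled positive, against 12.88, 12.97 and 12.13 in negative replicates 1, 2 and 3. Probe set 1419873_s_at had 9.75 in the array labelled positive, against 11.40, 10.94 and 10.28 in these negative arrays. For 1423593_a_at the array labelled positive had 7.93, against 9.74, 9.80 and 8.82 in the negative arrays. In all 3 the array labelled positive was the lowest, as in 23.6% of all probe sets, and negative replicate 3 the next. The differences were -1.03, -1.12 and -1.52 log2 units, levels 2.05-fold, 2.17-fold and 2.88-fold lower. The standard errors were 0.43, 0.51 and 0.50, and the limma p was 0.0780, 0.0955 and 0.0401 before adjustment and 1.00 after it. The 95% limma interval excluded 0 only for 1423593_a_at, at -2.93 to -0.11. Without negative replicate 3 the differences were -1.30, -1.42 and -1.84. They were -0.92, -0.86 and -1.38 without replicate 1, and -0.88, -1.09 and -1.35 without replicate 2. Without replicate 3 all 3 lay at least 1 log2 unit below both remaining negative arrays, as 2.64% of all probe sets did. Replicate 3 was the lowest negative array in all 3, so leaving it out widened this gap by construction. That gap was reached by 0 of the 16 receptor probe sets with all arrays, and again without replicate 1 or replicate 2.

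Macrophage markers were summed in the same arrays. Of 12 listed, 12 were measured, 6 lay below the negative range, 0 above it and 6 within it, where 23.0% of all genes lay below. Their summed intensity was 4791 in the array labelled positive, against 27697, 25664 and 4252 in negative replicates 1, 2 and 3. C1qb, which encodes part of the complement component C1q, had 10.89 in the array labelled positive and 12.97, 12.94 and 10.08 in negative replicates 1, 2 and 3. Cd5l, a secreted macrophage protein, measured 9.98 in the array labelled positive and 12.49, 12.27 and 10.16 in the same negative arrays. Against negative replicate 3 alone, the array labelled positive was lower in 6 of the 12 markers, Cd5l among them, and higher in the other 6, C1qb among them, and the 3 Csf1r probe sets were 0.50 to 0.89 log2 units lower. The part of macrophages in the Csf1r difference was not tested.

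**Figure D2:**
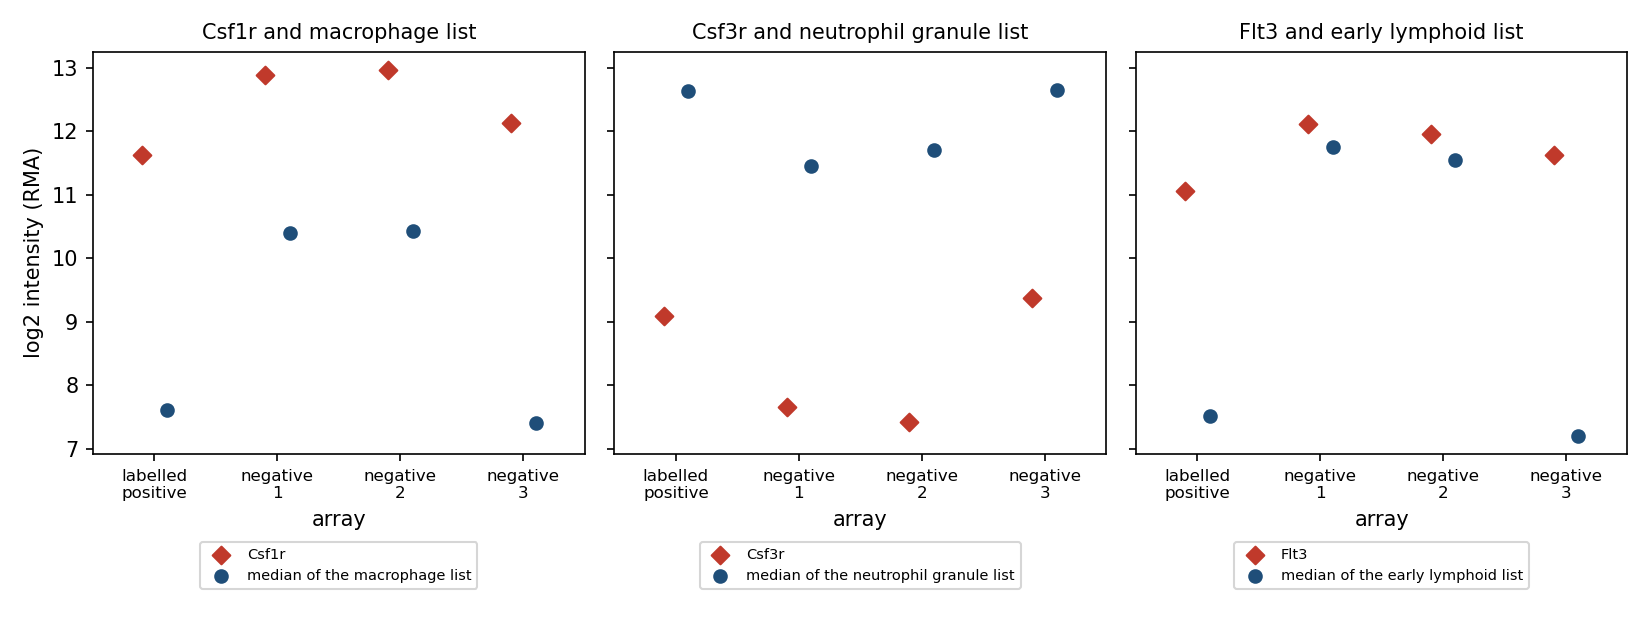
Log2 intensity (y axis) of a receptor (red diamonds) and the median of a marker list (blue circles) in the array labelled positive and negative replicates 1, 2 and 3 (x axis), for Csf1r with macrophage markers, Csf3r with neutrophil granule markers and Flt3 with early lymphoid markers. Heights of red and blue points are not comparable; receptor and list shift the same way between negative replicates 1 and 2 and the other 2 arrays.

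The alpha chains were described by 3 probe sets. Csf2ra, which binds GM-CSF, measured 8.82 in probe set 1420703_at in the array labelled positive, against 9.74, 9.64 and 9.23 in negative replicates 1, 2 and 3. The order of the arrays was that of Flt3, with the array labelled positive lowest, as in 23.6% of all probe sets. The difference was -0.71 log2 units (standard error 0.30, 95% limma interval -1.55 to 0.12), a level 1.64-fold lower. Leaving out negative replicate 3 gave -0.87, leaving out replicate 1 gave -0.61 and leaving out replicate 2 gave -0.66.

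The second Csf2ra probe set (1420704_at) gave another picture. It measured 6.45 in the array labelled positive and 6.46, 5.75 and 8.58 in negative replicates 1, 2 and 3. Negative replicate 3 stood 2.13 log2 units above the array labelled positive, the widest gap of any receptor probe set between those arrays. The difference, -0.48 with a standard error of 1.25, turned to 0.35 without negative replicate 3 and was -1.07 without replicate 2. The probe sets of Csf2ra thus disagreed on negative replicate 3, low in the first and high in the second.

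Il3ra, the IL-3 binding chain, has 1 probe set (1419712_at). It measured 6.70 in the array labelled positive and 6.53, 7.20 and 6.70 in negative replicates 1, 2 and 3. The array labelled positive lay inside the negative range, and the difference was -0.11 with a 95% limma interval of -1.09 to 0.88. It was -0.24 without negative replicate 1, 0.089 without replicate 2 and -0.16 without replicate 3.

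Csf2rb, the beta chain with which both alpha chains signal, spanned 0.77 and 0.52 log2 units over the 4 arrays in its 2 probe sets. Probe set 1455660_at measured 10.07 in the array labelled positive and 9.71, 9.33 and 10.10 in negative replicates 1, 2 and 3. Probe set 1421326_at had 9.70 in the array labelled positive, against 9.66, 9.18 and 9.50 in the negative arrays. In the first the array labelled positive lay inside the negative range, and in the second it lay above it by 0.04 log2 units. The differences were 0.36 (95% limma interval -0.71 to 1.42) and 0.25 (-0.54 to 1.04), without negative replicate 3 they were 0.55 and 0.28, and without replicate 2 they were 0.16 and 0.12.

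Mice carry a second beta chain gene, Csf2rb2, whose product serves IL-3 only and is nearly identical in sequence. Probe set 1450200_s_at is annotated to both genes and so was no member. It measured 10.14 in the array labelled positive and 9.84, 9.98 and 10.18 in negative replicates 1, 2 and 3. The Csf2rb2 probe set (1449360_at) measured 7.71 in the array labelled positive and 7.81, 8.52 and 8.03 in the same negative arrays, a difference of -0.41. Signal shared between the 2 genes cannot be told apart here, so the values of single beta chains are uncertain.

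Csf3r, the G-CSF receptor, had the largest positive difference of the 16 probe sets. Its probe set (1418806_at) measured 9.09 in the array labelled positive, against 7.65, 7.42 and 9.38 in negative replicates 1, 2 and 3. Negative replicate 3 was the highest array, so the groups overlapped. The difference of 0.93 log2 units, 1.91-fold, was smaller than the SD of the negative arrays, 1.07, and its 95% limma interval ran from -1.66 to 3.53. Without negative replicate 3 it was 1.55 log2 units, with the array labelled positive at least 1 log2 unit above both other arrays, as 2.87% of all probe sets were. Replicate 3 was the highest array, so leaving it out opened this gap by construction. Without replicate 1 the difference was 0.69 and without replicate 2 it was 0.57.

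Markers of neutrophil granules and granulocyte-monocyte progenitors were summed in the same arrays as well. Of 10 measured of 11 listed, 7 lay above the negative range and 0 below it, where 23.6% of all genes lay above. The 7 exceeded the highest negative array, which was replicate 3, by only 0.012 to 0.14 log2 units. The summed intensity of the 10 was 86044 in the array labelled positive, against 46129, 48958 and 85277 in negative replicates 1, 2 and 3. Their median log2 intensity was 12.64 in the array labelled positive, against 11.46, 11.71 and 12.65 in these negative arrays. S100a9, a calcium-binding protein of neutrophils, measured 14.22 in the array labelled positive and 13.99, 13.96 and 14.20 in negative replicates 1, 2 and 3. Spans over the 4 arrays ran from 0.25 log2 units, that of S100a9, to 4.14 in the dimmest of the 10 markers. The share of such cells in the Csf3r values was not tested.

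Il6st, the gp130 chain, has 4 probe sets whose differences were not of 1 sign. The brightest (1421239_at) measured 10.08 in the array labelled positive and 10.75, 10.93 and 9.69 in negative replicates 1, 2 and 3, with negative replicate 3 lowest. Probe set 1452843_at measured 8.42 in the array labelled positive and 9.13, 9.99 and 8.73 in the negative arrays, so the array labelled positive was lowest. Probe set 1460295_s_at had 8.44 in the array labelled positive, against 8.71, 8.20 and 8.18 in the negative arrays. For 1437303_at the array labelled positive had 5.87, against 6.04, 6.55 and 6.77 in the negative arrays. The differences were -0.38, -0.87, 0.08 and -0.58 log2 units in this order, each with a 95% limma interval that includes 0. The same differences without negative replicate 3 were -0.76, -1.15, -0.014 and -0.42. Without replicate 2 the first 2 were -0.14 and -0.52, and without replicate 1 the first was -0.23. Negative replicate 3 was thus at the low end in the brightest probe set and at the high end in the dimmest.

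**Figure D3:**
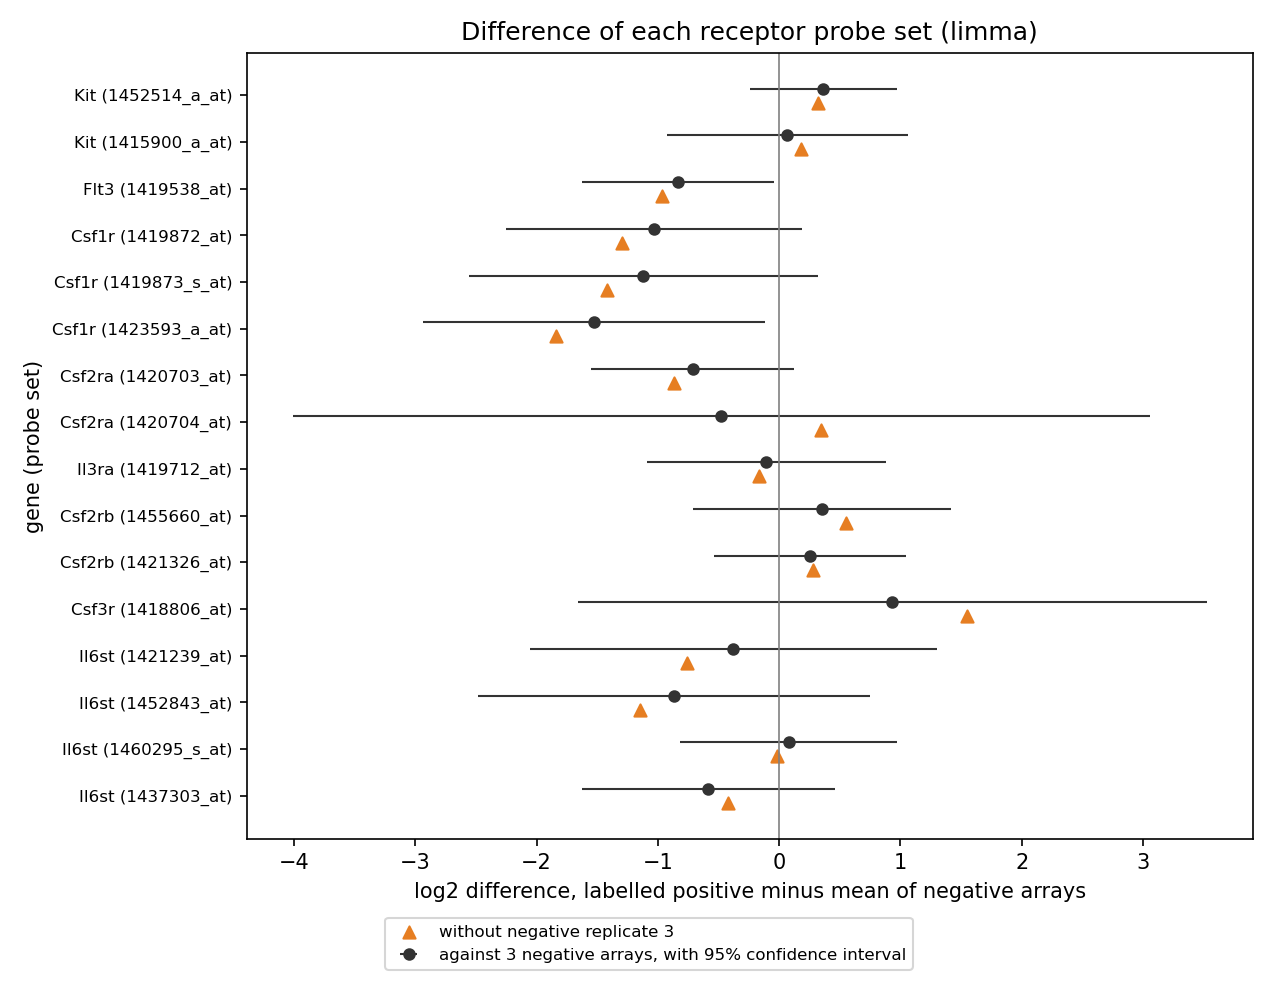
Log2 difference of the array labelled positive minus the mean of the negative arrays (x axis) for each receptor probe set (rows), with the 95% limma confidence interval (black) and the difference without negative replicate 3 (orange triangles). Only Flt3 and Csf1r 1423593_a_at have unadjusted intervals that exclude 0, and Csf3r moves furthest without replicate 3 among the higher probe sets, to 1.55.

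The receptors were also compared pair by pair of arrays. Between the array labelled positive and negative replicates 1 and 2, 5 of 16 receptor probe sets were at least 1 log2 unit apart in each pair, where 12.8% of all probe sets were. Between the array labelled positive and negative replicate 3 it was 1 of 16 (8.49% of all), and that was the second Csf2ra probe set. Between negative replicates 1 and 2 it was 0 of 16, where 11.7% of all probe sets were that far apart. Negative replicate 3 differed so from replicates 1 and 2 in 4 of 16 each, with 12.6% and 12.8% of all. The root mean square difference of the 16 was 0.70 log2 units between the array labelled positive and negative replicate 3, and 0.45 between negative replicates 1 and 2. It was 0.90 to 1.08 in the other 4 pairs. Over all probe sets the same measure was 0.58 and 0.68 in those first 2 pairs, and 0.73 to 0.74 in the other 4.

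**Figure D4:**
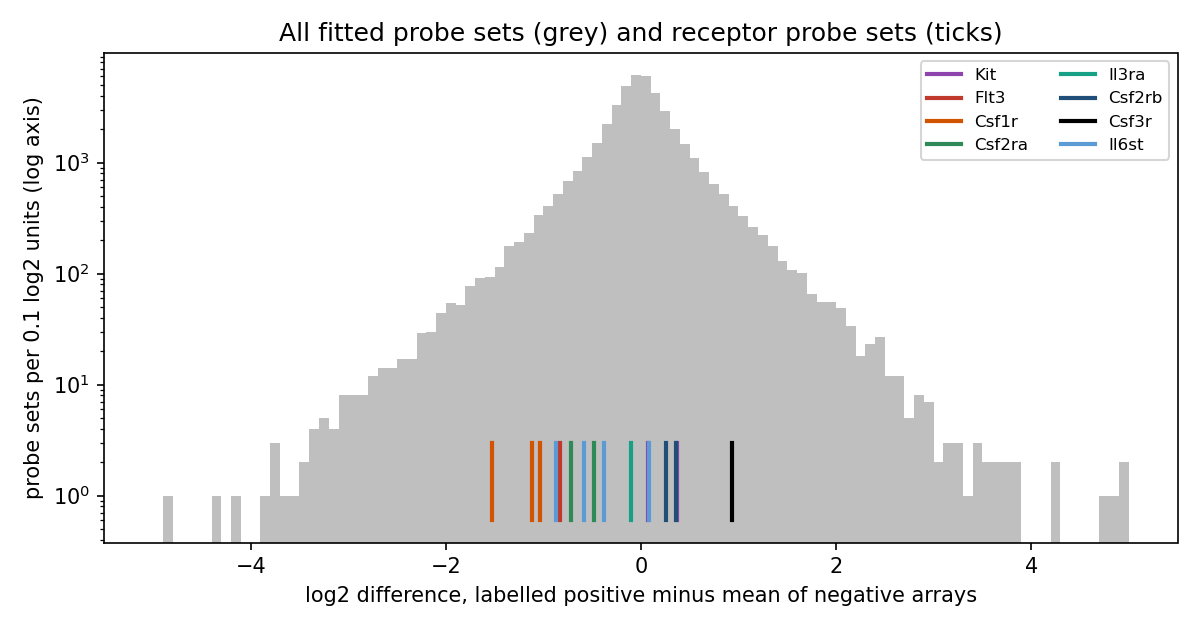
Histogram of the log2 difference, array labelled positive minus mean of the negative arrays, over all 45037 fitted probe sets (grey, log count axis), with the 16 receptor probe sets as coloured ticks. The receptor ticks run from -1.52 (Csf1r) to 0.93 (Csf3r), while all probe sets run from -4.86 to 4.93.

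Promoter sequence was set beside these values for Flt3, Csf2ra and Csf3r. Flt3 and the brighter of the 2 Csf2ra probe sets were lowest in the array labelled positive, while Csf3r was high there and highest in negative replicate 3. The sequences are the 250 bases before the start of the transcript on the strand of the gene, from RefSeq on GRCm38.p6. Capitals mark GAGGAAG, a core letter sequence bound by the myeloid factor PU.1, searched on both strands, with overlaps kept.
Flt3, chr5:147400490-147400739, minus strand: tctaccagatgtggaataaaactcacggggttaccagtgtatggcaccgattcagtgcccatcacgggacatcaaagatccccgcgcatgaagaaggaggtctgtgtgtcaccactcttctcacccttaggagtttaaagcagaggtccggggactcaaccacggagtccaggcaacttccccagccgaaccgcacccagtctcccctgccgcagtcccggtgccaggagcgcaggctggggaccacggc
Csf2ra, chr19:61228419-61228668, minus strand: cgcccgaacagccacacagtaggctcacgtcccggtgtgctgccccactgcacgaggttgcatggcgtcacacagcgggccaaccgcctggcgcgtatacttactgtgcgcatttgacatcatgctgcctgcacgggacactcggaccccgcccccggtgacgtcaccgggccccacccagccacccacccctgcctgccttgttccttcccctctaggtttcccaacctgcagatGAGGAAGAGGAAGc
Csf3r, chr4:126024409-126024658, plus strand: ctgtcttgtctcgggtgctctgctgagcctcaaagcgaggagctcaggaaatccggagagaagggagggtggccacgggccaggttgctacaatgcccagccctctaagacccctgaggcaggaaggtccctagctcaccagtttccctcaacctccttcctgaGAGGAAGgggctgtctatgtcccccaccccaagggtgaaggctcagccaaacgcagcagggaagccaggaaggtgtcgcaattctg

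The Csf2ra window holds 2 overlapping matches, which start 14 and 8 bases before the start, and the Csf3r window holds 1, from 86 to 80 bases before it. The Flt3 window has no such letters. Promoters were found for 6 of the 8 genes, 7 windows in all. GAGGAAG was in 4 of the 7 windows, where 10.6% of 32851 promoter windows of the same length hold it. These 4 windows belong to 3 genes (Kit, Csf2ra and Csf3r), as Kit has 2 windows that overlap. The N-box CACNAG, letters bound by HES proteins, was in the same 4 windows of these 3 genes, and in 36.7% of all windows. The E-box CACGTG (6.02% of all), the RBPJ letters GTGGGAA (5.42%), the GATA letters AGATAA (9.99%) and the RUNX letters TGTGGT (14.0%) were in none of the 7 windows. The C/EBP letters TTGCNNAA were in that of Il3ra, and in 9.56% of all. A match is a description of the letters and shows no binding. Spi1, the gene of PU.1, measured 10.07 in the array labelled positive and 9.98, 9.81 and 10.19 in negative replicates 1, 2 and 3, inside the negative range.

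The genes most like each receptor over the 4 arrays were taken by the smallest root mean square difference between log2 profiles, each centred on its own mean, among 18192 other genes. Each gene was taken by its probe set with the highest mean, and on these Flt3, Csf1r, Csf3r and Il6st spanned at least 1 log2 unit and were searched. The second Csf2ra probe set, which spanned 2.83, was thus not used. For Flt3 they were Stat4 (0.033 log2 units), Ppp1r16a (0.034) and Camk1d (0.043), and for Csf1r they were Rad9b (0.030), Alms1 (0.032) and Fcgrt (0.045). For Csf3r they were Pam (0.031), Vsig10 (0.10) and Nqo2 (0.13), and for Il6st Ptpn14 (0.029), Parp1 (0.036) and Desi1 (0.038). Stat4 measured 7.91 in the array labelled positive and 8.93, 8.83 and 8.42 in negative replicates 1, 2 and 3. Pam measured 8.66 in the array labelled positive and 7.27, 7.04 and 8.92 in the same negative arrays. With 4 arrays and so many genes, close profiles are easily found, and the likeness is a description only.

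The ligands, partner receptors and signalling genes of the pathway were described with 1 probe set a gene, that with the highest mean. limma called 0 of them in either direction, as it called 0 of 18193 genes, with 734 of all genes and 1 of these genes, Fes, at an unadjusted p under 0.05. Of 11 ligands measured of 14 listed, 3 lay below the negative range, 2 above it and 6 within it, with a median difference of -0.07. Of all genes, 23.0% lay below and 23.6% above. The count below became 7 without negative replicate 1, where 34.2% of all genes lay below. Lif, a ligand of the gp130 family, measured 5.30 in the array labelled positive and 6.61, 5.49 and 6.48 in negative replicates 1, 2 and 3. The others below were 2 more ligands of that family, Il6 and Il11, the second named after its values were seen. Both were dim, with 97.9% and 83.1% of all probe sets at a higher mean, and differed by -0.31 and -0.07. Osm (oncostatin M) differed by -0.24 and Kitl (stem cell factor) by -0.17.

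Of 9 other cytokine receptors measured of 12 listed, 2 lay below, 1 above and 6 within, with a median of -0.14. The shares of all genes were 23.0% below and 23.6% above. Leaving out negative replicate 1, 2 or 3 put 4, 5 or 3 of them below, where 34.2%, 30.3% or 31.4% of all genes lay below. Il7r, the interleukin 7 receptor of lymphoid progenitors, had the largest difference, -2.53, at 8.39 in the array labelled positive and 12.11, 11.75 and 8.89 in negative replicates 1, 2 and 3. Il6ra, the IL-6 binding chain that pairs with gp130, measured 10.74 in the array labelled positive and 9.63, 9.97 and 10.56 in the negative arrays. It was highest in the array labelled positive, with negative replicate 3 next, a difference of 0.69, whereas its other probe set differed by -0.02.

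Of 12 kinases and STAT genes measured of 15 listed, 4 lay above, 3 below and 5 within, with a median of -0.11. For all genes the shares were 23.6% above and 23.0% below. Fes, a cytoplasmic tyrosine kinase of myeloid cells, measured 9.39 in the array labelled positive and 8.61, 8.24 and 8.52 in negative replicates 1, 2 and 3. The array labelled positive was higher than every negative array, and the difference was 0.93 (standard error 0.24), with an adjusted p of 1.00 in limma. Its second probe set differed by 0.76, and without negative replicate 3 the difference was 0.96. Tyk2, a JAK kinase, differed by 1.43 in 1 probe set and by -0.42 in the other, and Src by -0.66.

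Of 19 adaptors and phosphatases, all measured, 7 lay below, 2 above and 10 within, with a median of -0.12. Among all genes 23.0% lay below and 23.6% above. Inpp5d (SHIP1), a lipid phosphatase that restrains cytokine signalling, measured 9.26 in the array labelled positive and 10.10, 10.19 and 9.60 in negative replicates 1, 2 and 3. Pik3r1, a regulatory subunit of PI3 kinase, differed by -0.52, and Cbl, a ubiquitin ligase of activated receptors, by -0.53, with another of its probe sets at 0.20. Leaving out negative replicate 3 made these counts 10 below and 6 above, where 31.4% of all genes lay below and 36.1% above.

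Of 20 feedback and target genes, all measured, 5 lay below, 2 above and 13 within, with a median of -0.11, where 23.0% of all genes lay below and 23.6% above. They became 12 below and 4 above without negative replicate 3, where 31.4% and 36.1% of all genes did. Spry1, an inhibitor of receptor tyrosine kinase signalling, measured 7.55 in the array labelled positive and 8.53, 8.97 and 8.14 in negative replicates 1, 2 and 3, lower than each. Etv5, a transcription factor induced by such signalling, differed by -0.76 and Spred1, another inhibitor, by -0.61, although the 8 probe sets of Spred1 ran from -0.61 to 0.53.

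Of 12 transcription factors known to act on receptor genes, measured of 13 listed, 6 lay above the negative range, 1 below (Hes1) and 5 within, with a median of 0.28. In all genes 23.6% lay above and 23.0% below. Leaving out negative replicate 3 made the counts 9 above and 3 below, where 36.1% and 31.4% of all genes did. Cebpa, a factor needed for granulocyte progenitors, measured 9.55 in the array labelled positive and 8.55, 8.48 and 9.85 in negative replicates 1, 2 and 3. Tal1, a factor of stem and erythroid cells, measured 10.16 in the array labelled positive and 9.43, 9.26 and 10.18 in the negative arrays. In both, negative replicate 3 was the highest array and the array labelled positive the next, as for Csf3r.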

How the data were processed

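RNA of 4 samples, 1 labelled HES1-GFP positive and 3 HES1-GFP negative, was measured on Affymetrix arrays. Per the labels' protocols, the input was 5 ng of total RNA, amplified by a Nugen Ovation kit before biotin labelling. The deposited values are intensities on a linear scale, made by the authors with RMA per the submitters' processing notes. Neither the RMA version nor a genome build is named in the sources used here. That the scale is linear follows from the values, with array medians of 74.7 to 76.1. RMA equalizes the arrays and so hides any difference in RNA content per cell. Dim probe sets may be noisier after amplification of such a small input.

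The values were turned into log2 with no pseudocount, and 64 control probe sets were left out. Of 45037 probe sets, 34945 carried 1 gene symbol, 932 several and 9160 none in the platform annotation, and only those with 1 symbol were named. limma 3.58.1 (R 4.3.3; lmFit and eBayes, two-sided, Benjamini-Hochberg over all probe sets) compared positive with negative arrays on 2 residual and 1.80 prior degrees of freedom. Probe sets ending in _s_at may bind transcripts of several genes. No filter on level was applied, and all 16 receptor probe sets had a mean above the median of all.

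The receptors, partner lists and marker lists were chosen with earlier results of these data known. Named genes were all receptors, the 3 partners of each list with the largest absolute difference, Csf2rb2, Il6ra, Il7r, Kitl, Spi1 (added after its values were seen), the 3 genes nearest in profile to each receptor spanning 1 log2 unit, and, of the marker lists printed, genes among the 2 brightest. Alternatives were cyclic loess, a level filter, a pseudocount of 16, trend and robust eBayes, 1 probe set or the mean of probe sets a gene, and leaving out each negative array.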

Additional observations from a re-analysis of the deposited data

How the results depend on the processing

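limma called 0 of all probe sets and 0 of the receptor probe sets under each alternative run, with 724 to 3275 features and 0 to 6 receptor probe sets at an unadjusted p under 0.05. The count of receptor probe sets above the negative range was 2, and 1 with cyclic loess, 1 with 1 probe set a gene, and 3 to 4 without 1 negative replicate. The count below it was 7, and 3 with 1 probe set a gene, 4 with the mean of probe sets (both over 8 genes, by construction), and 7 to 9 without 1 negative replicate. Leaving an array out narrows the range by construction.

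Directions held for all 16 probe sets under cyclic loess, the level filter, the pseudocount, trend and robust settings and without negative replicate 1, and for the 8 genes with probe sets averaged. Leaving out 1 negative replicate turned the sign of 4 probe sets. Kit 1415900_a_at ran from -0.13 (without replicate 2) to 0.18, Csf2ra 1420704_at from -1.07 to 0.35 (without replicate 3), Il3ra from -0.24 to 0.089 (without replicate 2), and Il6st 1460295_s_at from -0.014 (without replicate 3, and -0.0035 without replicate 2) to 0.25. The cause was not tested. No paired analysis was possible because the groups share only replicate number 1.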
